A study of Mus musculus with 12 samples.

Results

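The lipid droplet coat and lipolysis genes described here are 9 rows of the 38926 gene symbols counted in mouse liver by RNA sequencing. They were taken by symbol: the perilipins Plin2, Plin3, Plin4 and Plin5, the CIDE genes Cidea, Cideb and Cidec, the lipase gene Pnpla2 and its inhibitor G0s2. The 12 libraries formed 4 groups of 3, namely wild type at ZT8, Rev-erbα-/- at ZT8, wild type at ZT20 and Rev-erbα-/- at ZT20. ZT is zeitgeber time, counted in hours from lights on, so ZT8 falls in the light phase and ZT20 in the dark phase. All mice were 12 weeks old and of a 129Ola/C57BL6 background, and per the study's methods they were males with free access to food. The Rev-erbα-/- mice are called the knockout below. The deletion removes REV-ERBα, the product of Nr1d1, from every tissue throughout life, so it is not a model of acute or liver-restricted loss. The labels number the libraries within a group but do not say how many animals stand behind each one, so the p-values measure the spread between these libraries. Each library held 17.6 to 26.1 × 1e6 reads assigned to genes.

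Hepatocytes store triglyceride in lipid droplets, a neutral lipid core inside a phospholipid monolayer that carries a protein coat. Perilipins cover the surface and limit or permit the access of lipases, CIDE proteins sit where droplets touch and pass lipid from one to the other, and the lipase ATGL, encoded by Pnpla2, cuts the first fatty acid from triglyceride. G0S2 binds ATGL and blocks it. REV-ERBα is a nuclear receptor of the circadian clock that lacks an activation domain, binds DNA at response elements shared with the ROR receptors and recruits a corepressor complex. Hepatic triglyceride storage and release follow the daily cycle of feeding and fasting, and the comparison of both genotypes at both times asks how far these transcripts differ without the receptor.

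Values are CPM, the reads of a gene per 1e6 reads assigned to genes, after TMM scaling, which adjusts each library's total for differences in composition, and a call is an adjusted p under 0.05 in edgeR's quasi-likelihood test, with the adjustment over all 14488 genes tested. Of the 9 genes, 8 were tested, since Cidea did not pass the filter on low counts. Reads on Nr1d1 itself did not separate the genotypes: at ZT8 the wild-type libraries held 129, 96.2 and 75.3 CPM and the knockout libraries 63.0, 71.9 and 80.6 CPM (log2 fold change −0.48, adjusted p = 0.143, edgeR). The deposited counts are totals per symbol, not per exon, so they do not check the deletion. The study itself reports that qRT-PCR found no Rev-erbα mRNA, and staining no REV-ERBα protein, in knockout liver. Arntl, which REV-ERBα represses, was at 0.652 ± 0.181 CPM (SD, n = 3) in wild type and 24.2 ± 1.52 CPM in the knockout at ZT8, with no overlap between the groups.

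The liver label was checked against its markers. Summed CPM of 6 hepatocyte genes was 49700 to 71600 in wild type and 59000 to 85000 in the knockout at ZT8, and 93800 to 104000 and 82700 to 91200 at ZT20. The sum was thus higher at ZT20 in wild type, where 4 of the 6 genes were called higher against 1 of 6 in the knockout, and none was called between genotypes. Its part in the time changes below was not tested. Among 7 adipocyte genes, which matter here because fat cells also express droplet genes, the sum was 5.73 to 9.76 CPM and came almost wholly from Fabp4. Lep had no read in any library, Plin1 had 1 read in 1 library, and Adipoq had at most 3 reads. The wild-type ZT8 group was not uniform. Summed acute phase transcripts (8 genes, among them Saa1, Hp and Lcn2) were at 2440, 18500 and 23800 CPM in wild-type ZT8 libraries 1, 2 and 3, against 2170 to 3090 CPM in the other 9 libraries. Kupffer cell genes were at 249 to 399 CPM in that group and at 225 to 281 CPM in the knockout at ZT8. The pancreatic acinar list of 5 genes was at 25.9 to 28.6 CPM in wild type and at 43.6 to 59.7 CPM in the knockout at ZT8. Prss2, Cpa1 and Cel had no read in either ZT8 group, nor had Pnlip in wild type, so the wild-type sum was Cela1 alone. Cela1, the only gene of the list that was tested, was called higher in the knockout at ZT8, as was 1 of 5 bile duct genes. Alignments of reads that matched several places numbered 1.76 to 3.28 per counted read in the ZT8 libraries, with 2.89 and 3.28 in wild-type libraries 2 and 3, and 1.24 to 1.67 in the ZT20 libraries. The part of these differences in the results was not tested. The called results of the 9 genes that use the wild-type ZT8 group are also given without its libraries 2 and 3. That leaves 1 library, which the fit assumes to vary like the other groups. In whole liver, fewer cells of a type and less RNA per cell cannot be told apart.

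Plin5, Cidec and Plin3 changed with genotype at ZT8, and up to 250 bases before the RefSeq start of each are shown, without annotated exon bases, so that the promoters of the changed genes can be read. The sequences are from RefSeq on GRCm38 (mm10) and run 5′ to 3′ on the gene's strand. Capitals mark AGGTCA, the core element of many nuclear receptors, REV-ERBα included. The Plin5 window is chr17:56117597-56117798, the Cidec window chr6:113435761-113436010 and the Plin3 window chr17:56290512-56290761, all on the minus strand. The Plin3 window lies inside the span of the GENCODE gene, where a longer transcript starts further upstream.
Plin5: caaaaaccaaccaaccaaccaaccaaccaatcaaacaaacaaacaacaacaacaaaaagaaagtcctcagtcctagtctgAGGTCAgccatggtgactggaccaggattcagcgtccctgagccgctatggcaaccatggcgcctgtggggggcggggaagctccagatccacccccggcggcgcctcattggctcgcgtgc
Cidec: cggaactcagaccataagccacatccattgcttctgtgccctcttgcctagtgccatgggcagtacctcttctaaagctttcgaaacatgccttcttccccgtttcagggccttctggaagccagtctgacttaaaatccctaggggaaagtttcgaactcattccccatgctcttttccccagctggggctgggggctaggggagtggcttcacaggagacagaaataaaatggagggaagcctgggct
Plin3: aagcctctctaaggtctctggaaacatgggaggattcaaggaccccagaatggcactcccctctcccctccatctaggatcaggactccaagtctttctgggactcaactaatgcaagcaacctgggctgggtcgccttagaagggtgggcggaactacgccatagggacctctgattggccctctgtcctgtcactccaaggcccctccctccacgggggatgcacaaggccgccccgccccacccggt

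Windows of 250 bases before the start were available for 8 members, 10 windows in all. On either strand, AGGTCA was present in 2 of the 10, in Plin5 at −170 to −165 from the RefSeq start and in Plin2 at −218 to −213 on the opposite strand, and in 14.02% of all 32851 such windows. No member window held 2 copies of AGGTCA in direct repeat with 1 base between, a pattern that was present in 0.03% of all windows. The E-box CACGTG (6.02% of all windows), the D-box TTANNTAA (5.43%) and the glucocorticoid response element, GNACA and TGTNC with 3 bases between (0.39%), were also found in no member window. These are matches of letters within a short stretch and say nothing about binding there or elsewhere.

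Plin5, the perilipin of oxidative tissues that tethers droplets to mitochondria, showed the clearest change. It lies on mm10 chromosome 17 at 56111601 to 56117596 on the minus strand, 1797 bases from Plin4 and 159.9 kb from Plin3. At ZT8 it was at 18.4, 22.4 and 17.8 CPM in wild type and at 37.5, 45.2 and 63.4 CPM in the knockout. Every knockout library lay above every wild-type library. The level was 2.50-fold higher in the knockout (log2 fold change 1.32, SE 0.21, adjusted p = 0.00466, edgeR), and the 95% interval of the log2 change was 0.84 to 1.80. At ZT20 the wild-type libraries held 62.7, 50.7 and 50.9 CPM and the knockout libraries 39.0, 42.4 and 58.3 CPM. The groups overlapped there, and the log2 difference of −0.23 did not pass the test (95% interval −0.69 to 0.22, adjusted p = 0.698, edgeR). Plin5 was the member whose genotype difference itself changed with time. The difference at ZT20 minus that at ZT8 was −1.55 on the log2 scale (SE 0.30, adjusted p = 0.0134, edgeR).

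Read along the day, wild-type Plin5 was 2.80-fold higher at ZT20 than at ZT8 (log2 fold change 1.49, SE 0.21, adjusted p = 5.9e-04, edgeR), whereas the same comparison in the knockout gave −0.07 with an interval of −0.53 to 0.39. The knockout mean at ZT8, 48.7 ± 13.3 CPM, stood beside 54.8 ± 6.85 CPM in wild type at ZT20 and 46.6 ± 10.3 CPM in the knockout at ZT20. The ZT8 difference remained past the threshold when any 1 of the 12 libraries was left out. Without wild-type ZT8 libraries 2 and 3 it was 1.40 with an adjusted p of 0.114 (edgeR), the difference between times was −1.63 with an adjusted p of 0.0999, and the wild-type time change was 1.57 with an adjusted p of 0.0298. With those libraries gone, the ZT8 comparison called 346 genes in all instead of 1224.

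**Figure D1:**
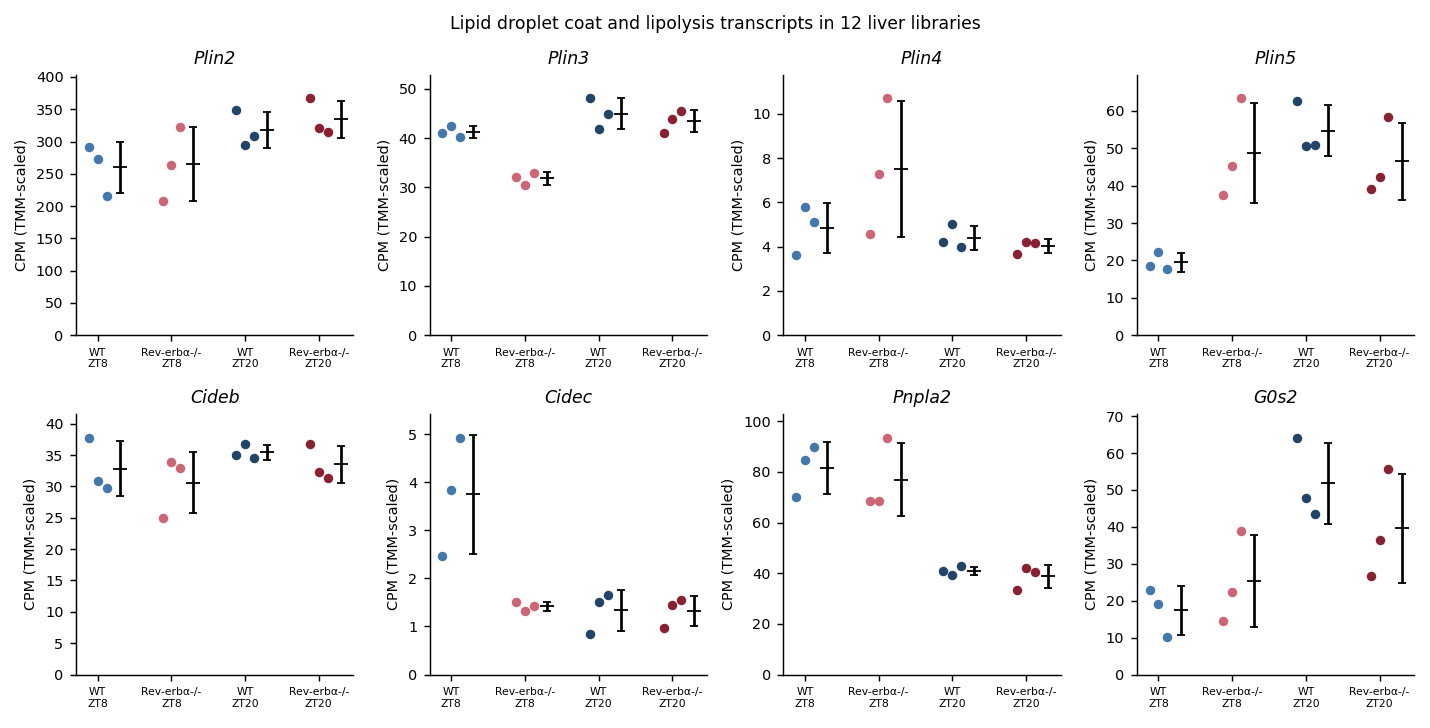
Library-size-scaled level (CPM, linear axis from 0) of the 8 tested genes in each of the 12 libraries, 3 points per group in the order of the library numbers, with the mean and SD of each group as a black bar beside them. Wild-type ZT8 libraries were the lowest 3 of 12 for Plin5 and the highest 3 for Cidec, the Rev-erbα-/- ZT8 libraries were the lowest 3 for Plin3, and Pnpla2 was lower at ZT20 than at ZT8 in both genotypes.

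Plin3, a perilipin that moves from the cytosol onto newly formed droplets, changed the other way and by less. Its gene lies on mm10 chromosome 17 at 56277476 to 56292873, minus strand. It was at 41.1, 42.5 and 40.2 CPM in wild type at ZT8 and at 32.2, 30.4 and 33.0 CPM in the knockout. The groups did not overlap, and each lay within a narrow range. The log2 fold change was −0.37 (SE 0.07, adjusted p = 0.00530, edgeR). This gene had the smallest spread between replicates among the members, a biological coefficient of variation of 7.46%, lower than in all but 5.85% of the tested genes. At ZT20 the levels were 48.1, 41.9 and 45.0 CPM in wild type and 41.1, 43.9 and 45.6 CPM in the knockout, overlapping groups with a log2 difference of −0.05 (95% interval −0.20 to 0.11). The change of the genotype difference with time, 0.33, did not pass the test (adjusted p = 0.0777, edgeR). In the knockout Plin3 rose towards ZT20 by a log2 change of 0.45 (SE 0.07, adjusted p = 6.9e-04, edgeR), and in wild type the value was 0.12 with an interval of −0.03 to 0.28. Without wild-type ZT8 libraries 2 and 3 the ZT8 difference was −0.37 with an adjusted p of 0.0941.

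Plin2, the main perilipin of hepatocytes, lies on mm10 chromosome 4 at 86648386 to 86670060, minus strand, and had the most reads of the 9 genes. Its levels at ZT8 were 291, 273 and 216 CPM in wild type and 208, 264 and 323 CPM in the knockout, and the ranges overlapped. At ZT20 they were 349, 295 and 309 CPM in wild type and 367, 321 and 315 CPM in the knockout. No difference by genotype was detected, with log2 fold changes of 0.03 at ZT8 (95% interval −0.29 to 0.34) and 0.07 at ZT20 (95% interval −0.24 to 0.39). The ZT20 values in wild type all lay above the ZT8 values, yet the log2 change of 0.29 did not pass the test (adjusted p = 0.166, edgeR). In the knockout the corresponding change of 0.34 had an adjusted p of 0.138, and 0.0271 at a log2 change of 0.50 when knockout ZT8 library 3 was left out.

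Plin4, an unusually long, repeat-rich perilipin best known from adipocytes, was scarce in liver. It lies on mm10 chromosome 17 at 56100591 to 56109803, minus strand, where 17 bases of its exons overlap Hdgfl2 on the other strand. It was at 3.62, 5.78 and 5.13 CPM in wild type and 4.57, 7.28 and 10.7 CPM in the knockout at ZT8. The groups overlapped, and the knockout values differed 2.34-fold among themselves. The log2 difference of 0.64 did not pass the test (95% interval 0.10 to 1.19, adjusted p = 0.141, edgeR), but did so at 0.90 without knockout ZT8 library 1 (adjusted p = 0.0188). At ZT20 all 6 libraries fell between 3.65 and 5.00 CPM. In the knockout the level was lower at ZT20 than at ZT8 by a log2 change of −0.91 (SE 0.25, adjusted p = 0.0257, edgeR). That call depended on single libraries: it was −0.56 with an adjusted p of 0.111 without knockout ZT8 library 3, and it was lost in 5 of the 12 leave-one-out fits (each without 1 library), those without knockout ZT8 library 2 or 3 or any knockout ZT20 library. In wild type the change was −0.13 (95% interval −0.69 to 0.43).

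**Figure D2:**
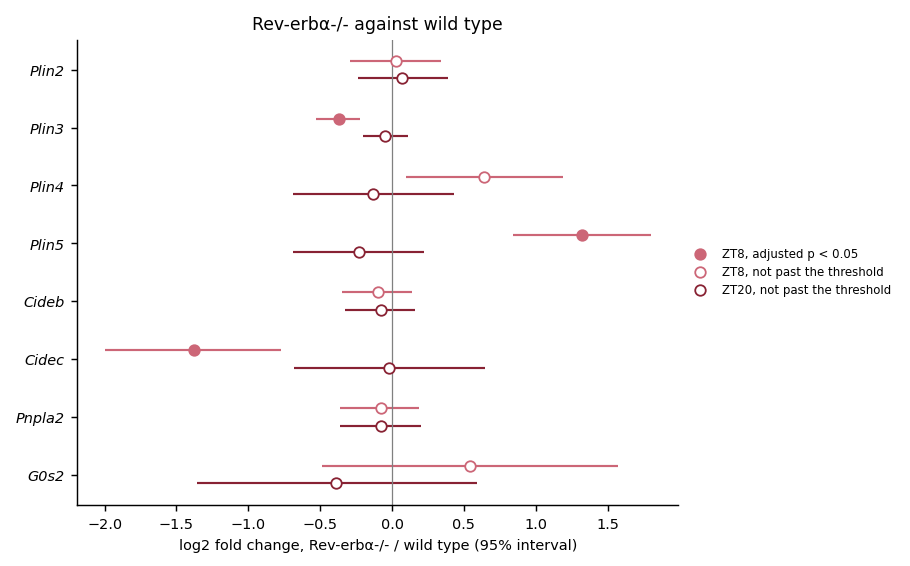
Log2 fold change of Rev-erbα-/- over wild type with its 95% interval for the 8 tested genes at ZT8 (upper line of each pair) and ZT20 (lower line), with filled points for adjusted p under 0.05. At ZT8 Plin5 was higher at 1.32, Plin3 lower at −0.37 and Cidec lower at −1.38, and at ZT20 every interval included 0.

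The same CPM values also give the make-up of the perilipin transcripts. The shares within a library depend on each other, so a lower Plin2 share where Plin5 is higher is not a separate result about Plin2. To compare genes, CPM was divided by the kilobases of exon of each gene. On this length-scaled level, Plin2 made up 80.3, 77.2 and 75.4% of the summed perilipin transcripts in wild type at ZT8 and 68.5, 70.8 and 69.2% in the knockout. Plin5 made up 8.54, 10.6 and 10.5% in wild type and 20.7, 20.4 and 22.9% in the knockout. Neither share overlapped between genotypes at ZT8. The Plin2 share was lower by 8.14 percentage points in the knockout (exact permutation test, two-sided, p = 0.1, the smallest that 3 against 3 allows). Against wild-type ZT8 library 1 alone it was lower by a difference of −10.8 points. At ZT20 the wild-type shares of Plin2 were 69.6, 69.9 and 70.4% and the knockout shares 77.6, 73.7 and 68.8%, which overlapped (exact permutation p = 0.4). Plin5 then made up 21.0, 20.2 and 19.5% in wild type and 13.9, 16.4 and 21.4% in the knockout. The summed level was 95.1 ± 11.9 CPM per kb in wild type and 109 ± 23.2 CPM per kb in the knockout at ZT8, and 129 ± 12.0 and 130 ± 5.28 CPM per kb at ZT20. Exon length bears on the shares, since Plin2 has 3512 bases of merged exon but a longest transcript of 1888 bases. With the longest transcript in its place the mean Plin2 share was 86.1% in wild type and 80.2% in the knockout at ZT8.

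**Figure D3:**
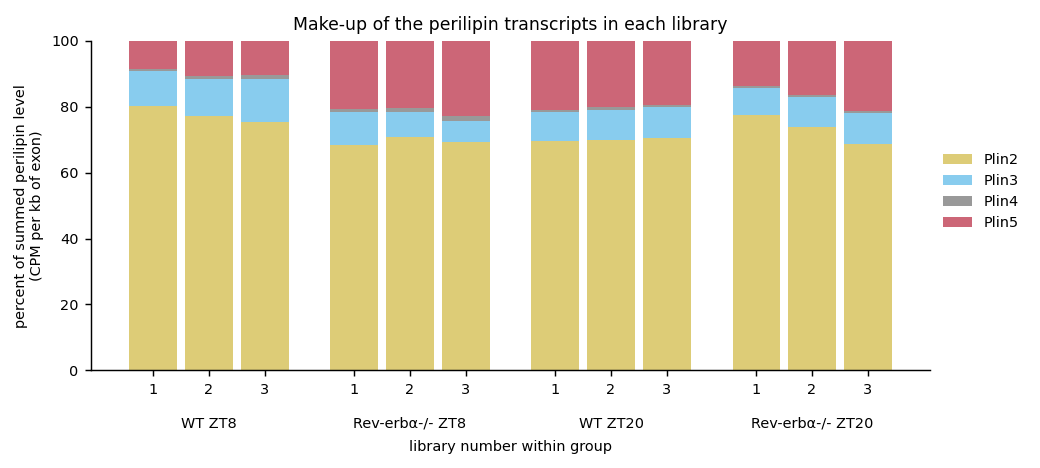
Share of each perilipin gene (percent, axis from 0 to 100) in the summed CPM per kb of exon of Plin2, Plin3, Plin4 and Plin5, 1 bar per library in 4 groups of 3. The Plin5 segment took 8.54 to 10.6% in the wild-type ZT8 libraries and 13.9 to 22.9% in the other 9.

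Of the CIDE genes, Cidec changed at ZT8 and Cideb did not. CIDEC, also called FSP27, enlarges droplets by lipid transfer and is abundant in fat and in fatty liver. The gene lies on mm10 chromosome 6 at 113424634 to 113435760, minus strand. It was at 2.47, 3.84 and 4.93 CPM in wild type at ZT8, from 62, 77 and 97 reads, and at 1.51, 1.33 and 1.42 CPM in the knockout, from 24 to 29 reads. The groups did not overlap, and the wild-type values differed 2.00-fold among themselves. The level was 2.61-fold lower in the knockout (log2 fold change −1.38, SE 0.29, adjusted p = 0.00812, edgeR). At ZT20 it was at 0.837, 1.50 and 1.66 CPM in wild type and at 0.965, 1.44 and 1.56 CPM in the knockout, with a log2 difference of −0.02 (95% interval −0.68 to 0.65). Thus the wild-type ZT8 libraries were the only ones above 1.66 CPM. Wild-type Cidec fell by a log2 change of 1.47 from ZT8 to ZT20 (SE 0.29, adjusted p = 0.00136, edgeR), and in the knockout the change was −0.11 (95% interval −0.78 to 0.56). The difference between the genotype effects at the 2 times, 1.37, did not pass the test (SE 0.43, adjusted p = 0.0749, edgeR), although it did so at 1.61 when wild-type ZT8 library 1 was left out (adjusted p = 0.0156).

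The order of Cidec within the wild-type ZT8 group was also that of the acute phase transcripts: the library at 2440 CPM of those transcripts had 2.47 CPM of Cidec, and the libraries at 18500 and 23800 CPM had 3.84 and 4.93 CPM. This order of 3 libraries was not particular to Cidec. Pnpla2 shared it at 70.2, 84.8 and 89.8 CPM. Plin2, Cideb and G0s2 had the reverse order, and Plin3, Plin4 and Plin5 had neither. Without libraries 2 and 3 the Cidec difference at ZT8 was −0.80 with an adjusted p of 0.341, and the change from ZT8 to ZT20 in wild type −0.89 with an adjusted p of 0.127. The part of the acute phase libraries in the Cidec difference was not tested, since leaving them out leaves 1 wild-type library at ZT8.

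Cideb, the CIDE protein of hepatocytes, which takes part in VLDL lipidation as well as in droplet fusion, lies on mm10 chromosome 14 at 55754050 to 55758458, minus strand. Nop9, on the other strand, overlaps 76.3% of its exon bases. Per the study's methods, counting ignored strand and used HTSeq's union mode, which sets aside reads that fall on several genes as ambiguous. Such reads were left out, so the Cideb level is likely too low, by an amount that was not measured. The overlap is that of the annotation used here, and the release behind the counts is not given. It was at 37.8, 30.9 and 29.7 CPM in wild type and 25.0, 33.9 and 32.9 CPM in the knockout at ZT8, and at 35.0, 36.8 and 34.6 CPM against 36.8, 32.3 and 31.4 CPM at ZT20. The genotypes overlapped at both times. The log2 difference between genotypes was −0.10 at ZT8 (95% interval −0.35 to 0.14) and −0.08 at ZT20 (95% interval −0.33 to 0.16), and from ZT8 to ZT20 the values were 0.11 in wild type and 0.13 in the knockout.

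Cidea, the CIDE gene of brown fat, which also appears in fatty liver, lies on mm10 chromosome 18 at 67343604 to 67367785, plus strand. It had no read in 9 libraries, all those outside the knockout ZT20 group. A count of 0 allows up to 3 reads, which is 0.119 to 0.167 CPM at the depth of these libraries. In the knockout at ZT20 it had 2, 4 and 5 reads (0.0839, 0.156 and 0.222 CPM). These values lie around the limit, so no fold change is given. The exact permutation test of the CPM at ZT20 gave p = 0.1, the smallest possible with 3 against 3. Of the 7 adipocyte genes, Fabp4 had 140, 193 and 125 reads in those 3 libraries, Adig 2, 3 and 2, and Cfd 0, 0 and 2. Adipoq and Plin1 had at most 1 read there, and Lep and Retn none. The part of fat cells in the Cidea reads was not tested.

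Pnpla2 changed with time of day and not detectably with genotype. The gene lies on mm10 chromosome 7 at 141455198 to 141460743, plus strand. It was at 70.2, 84.8 and 89.8 CPM in wild type and 68.7, 68.6 and 93.6 CPM in the knockout at ZT8. At ZT20 it was at 40.8, 39.2 and 42.7 CPM in wild type and 33.5, 42.2 and 40.5 CPM in the knockout. Every ZT8 library lay above every ZT20 library in both genotypes. The level was 1.99-fold lower at ZT20 in wild type (log2 fold change −0.99, SE 0.13, adjusted p = 8.8e-05, edgeR) and likewise 1.99-fold lower in the knockout (log2 fold change −0.99, SE 0.13, adjusted p = 2.3e-04, edgeR). Without wild-type ZT8 libraries 2 and 3 the wild-type change was −0.78 with an adjusted p of 0.00932. With all libraries, the difference between the wild-type and knockout changes was 0.00 on the log2 scale (95% interval −0.39 to 0.40). Between genotypes the log2 difference was −0.08 at both times, with intervals of −0.36 to 0.19 at ZT8 and −0.36 to 0.20 at ZT20.

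G0s2, the ATGL inhibitor, lies on mm10 chromosome 1 at 193272161 to 193273217, minus strand, inside an intron of Lamb3 on the other strand. It was the most variable member, with a biological coefficient of variation of 36.8%, above that of 97.7% of the tested genes. At ZT8 it was at 22.8, 19.2 and 10.1 CPM in wild type and 14.6, 22.4 and 38.9 CPM in the knockout. At ZT20 it was at 64.2, 47.8 and 43.4 CPM in wild type and 26.7, 36.5 and 55.7 CPM in the knockout. The genotypes overlapped at both times, with log2 differences of 0.54 at ZT8 (95% interval −0.49 to 1.57) and −0.39 at ZT20 (95% interval −1.36 to 0.59), so the spread leaves wide intervals. In wild type the level rose 2.97-fold from ZT8 to ZT20 (log2 fold change 1.57, SE 0.44, adjusted p = 0.0308, edgeR). This call was lost in 5 of the 12 leave-one-out fits, those without wild-type ZT8 library 2 or 3 or any wild-type ZT20 library, with adjusted p-values up to 0.0937, and it was 1.18 with an adjusted p of 0.325 without wild-type ZT8 libraries 2 and 3. In the knockout the change was 0.64 (95% interval −0.35 to 1.64, adjusted p = 0.369, edgeR).

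The ratio of inhibitor to lipase reads was taken within each library, where the scaling between libraries has no part. The log2 ratio of G0s2 to Pnpla2 was −1.62, −2.14 and −3.16 in wild type at ZT8 and −2.23, −1.61 and −1.27 in the knockout. At ZT20 it was 0.65, 0.28 and 0.02 in wild type and −0.33, −0.21 and 0.46 in the knockout. The ratio was higher at ZT20 than at ZT8 in every library of both genotypes. The knockout exceeded wild type by 0.602 at ZT8 (exact permutation test, two-sided, p = 0.4) and was below it by a difference of −0.346 at ZT20 (exact permutation p = 0.3), both within the spread between replicates. Leaving out 1 library moved the ZT8 value between 0.178, without wild-type library 3, and 0.944, without wild-type library 1, and the ZT20 value between −0.589, without knockout library 3, and −0.180, without wild-type library 1. Against wild-type ZT8 library 1 alone the ZT8 value was −0.0807.

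**Figure D4:**
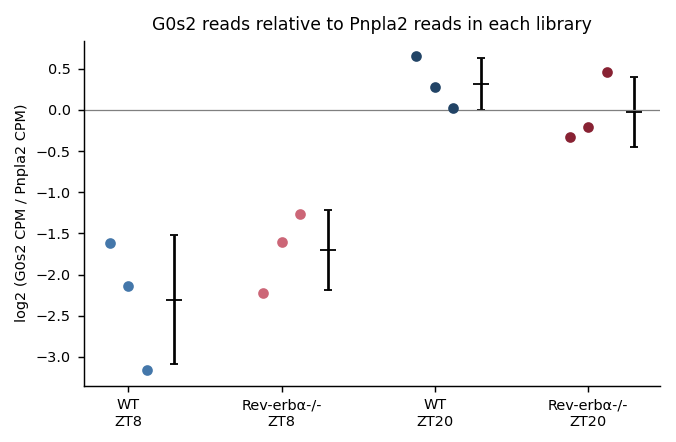
Log2 ratio of G0s2 CPM to Pnpla2 CPM in each library, 3 points per group, with the group mean and SD as a black bar and a line at 0, where the 2 genes have equal CPM. All 6 ZT8 libraries lay between −3.16 and −1.27 and all 6 ZT20 libraries between −0.33 and 0.65.

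**Figure D5:**
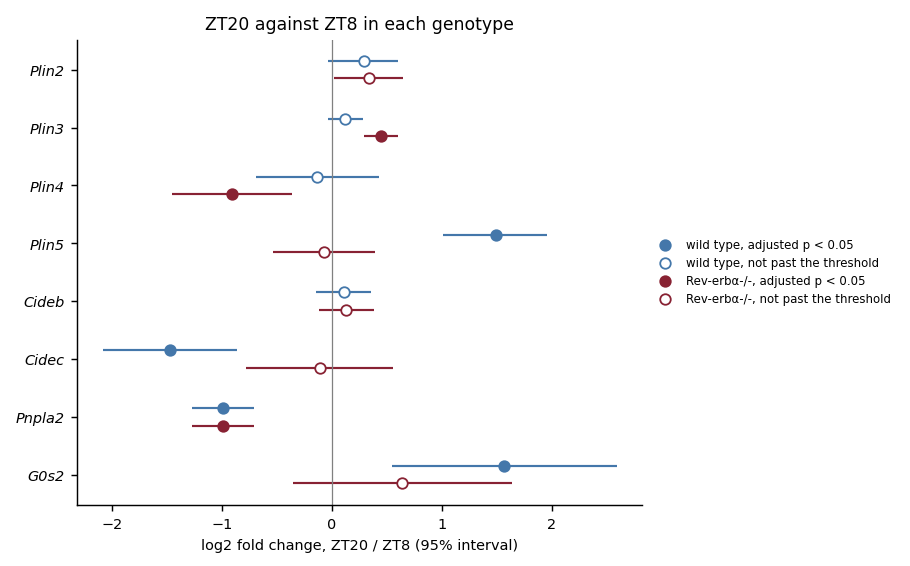
Log2 fold change of ZT20 over ZT8 with its 95% interval for the 8 tested genes in wild type (upper line of each pair) and Rev-erbα-/- (lower line), with filled points for adjusted p under 0.05. Pnpla2 had the same value of −0.99 in both genotypes, while Plin5 stood at −0.07 in Rev-erbα-/- and at 1.49 in wild type.

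Counted together, 3 of the 8 tested members were called at ZT8, Plin5 higher and Plin3 and Cidec lower in the knockout, where 8.45% of all tested genes were called (4.40% higher, 4.04% lower). The median log2 change of the 8 was −0.03, beside 0.002 for all genes. At ZT20 edgeR called 0 of 8, where 3.63% of all genes were called (2.09% higher, 1.54% lower). None of the 8 had an unadjusted p under 0.05 there, DESeq2 called 0 as well, and the median was −0.08. The difference between times was called for 1 of 8, Plin5, against 5.88% of all genes (2.83% with a positive and 3.05% with a negative difference). From ZT8 to ZT20, 4 of 8 were called in wild type (Plin5 and G0s2 higher, Cidec and Pnpla2 lower) against 27.7% of all genes (13.8% higher, 13.9% lower), and 3 of 8 in the knockout (Plin3 higher, Plin4 and Pnpla2 lower) against 17.5% (8.79% higher, 8.67% lower). The ZT8 genotype comparison, the wild-type time comparison and the difference between times all use the same wild-type ZT8 libraries, so their values for Plin5 and Cidec are not independent. Without libraries 2 and 3 of that group 1 library is left in it, and fewer of all tested genes pass. Member counts are thus not compared for that fit. Its log2 differences at ZT8 were 1.40 for Plin5, −0.37 for Plin3 and −0.80 for Cidec.

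Levels between genes, on the CPM per kb scale, were ordered similarly at the top and bottom and differently in the middle. In wild type at ZT8 the order of the means was Plin2 at 74.0, Pnpla2 at 27.0, Cideb at 22.1, G0s2 at 19.9, Plin3 at 10.9, Plin5 at 9.36, Cidec at 2.02 and Plin4 at 0.839 CPM per kb. The ranges of Pnpla2 and Cideb, of Cideb and G0s2, and of Plin3 and Plin5 overlapped there. In the knockout at ZT8 Plin5 stood at 23.3 CPM per kb, between Pnpla2 and Cideb and overlapping both, and Plin4 at 1.30 CPM per kb preceded Cidec at 0.765, also overlapping. At ZT20 in wild type G0s2 was second at 59.5 CPM per kb, followed by Plin5 at 26.2, Cideb at 23.8 and Pnpla2 at 13.6, and the ranges of Plin5 and Cideb overlapped. The ZT20 order in the knockout had G0s2 at 45.5, Cideb at 22.5, Plin5 at 22.3 and Pnpla2 at 12.8 CPM per kb, with overlapping ranges for Cideb and Plin5. Cideb was divided by all its exon bases, although Nop9 shares 76.3% of them and reads there were likely left out. Its scaled level is then too low, so its place in each order, also relative to Plin2, is not settled.

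Among the replicates of the knockout at ZT8, library 3 had the highest value of the group for 6 of the 8 tested members (Plin2, Plin3, Plin4, Plin5, Pnpla2 and G0s2), and library 1 the lowest for 5 (Plin2, Plin4, Plin5, Cideb and G0s2). Other groups had such libraries too. Knockout ZT20 library 1 was the lowest of its group for 6 of the 8, and wild-type ZT8 library 3 for 5. Leaving out knockout ZT8 library 3 took the ZT8 log2 differences to 1.08 for Plin5, 0.30 for Plin4, 0.08 for G0s2 and −0.14 for Plin2. The Plin5 difference stayed past the threshold.

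The surrounding pathway was described from 4 lists, of which 53 genes could be tested. Of 16 genes of lipolysis and lipophagy, 2 rose and 0 fell in the knockout at ZT8, beside 8.45% of all tested genes called (4.40% higher, 4.04% lower). Abhd5, which encodes the ATGL activator CGI-58, was at 30.1 ± 0.848 CPM in wild type and 39.4 ± 0.776 CPM in the knockout (log2 fold change 0.39, adjusted p = 0.00662, edgeR), and at 39.1 ± 1.64 and 38.4 ± 3.96 CPM at ZT20. Lipa, which encodes lysosomal acid lipase, was at 178 ± 15.2 and 234 ± 5.07 CPM at ZT8 (log2 fold change 0.39, adjusted p = 0.00588, edgeR). Of 10 genes of droplet formation and growth, 0 rose and 2 fell. Lpin2, a phosphatidate phosphatase of triglyceride synthesis, was at 341 ± 59.0 CPM in wild type and 188 ± 11.1 CPM in the knockout (log2 fold change −0.86, adjusted p = 0.00218, edgeR). Tmem159, the partner of seipin at sites of droplet formation, was at 2.93 ± 0.334 and 1.71 ± 0.180 CPM (log2 fold change −0.77, adjusted p = 0.0157, edgeR). The Tmem159 call was lost in 4 of the 12 leave-one-out fits, those without wild-type ZT8 library 2 or 3 or knockout ZT8 library 1 or 2, with adjusted p-values up to 0.0666, and in the fit of the 2 groups alone at 0.0548.

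Of 12 other droplet proteins, 2 rose and 0 fell at ZT8. Spg20, encoding spartin, was at 38.5 ± 1.58 and 51.4 ± 1.91 CPM (log2 fold change 0.42, adjusted p = 0.00106, edgeR), and the other was Ubxn4. Of 15 transcription regulators 3 rose and 2 fell. Over the 4 lists together 11 of 53 were called, against the same 8.45% of all genes. Besides Arntl (log2 fold change 5.18, adjusted p = 2.2e-12, edgeR) and Hnf4a, Ppard, a fatty acid-sensing nuclear receptor, rose from 8.59 ± 0.718 to 16.4 ± 2.37 CPM (log2 fold change 0.94, adjusted p = 0.00227, edgeR). Ppargc1a, the coactivator PGC-1α, fell by 0.71 on the log2 scale (adjusted p = 0.00525, edgeR). The medians of the 4 lists at ZT8 were 0.12, −0.17, −0.01 and −0.21 in the order given, beside 0.002 for all genes. Without wild-type ZT8 libraries 2 and 3, 1 library is left in that group and fewer of all tested genes pass, so calls are not compared. The log2 differences at ZT8 were then −0.57 for Lpin2, −0.54 for Ppargc1a, 0.25 for Lipa and −0.60 for Tmem159. They were 0.43 for Abhd5, 0.35 for Spg20, 1.07 for Ppard, 0.40 for Hnf4a and 4.91 for Arntl. Each kept the direction it had with all libraries. The Hnf4a call, 0.35 in all libraries, was lost in 7 of the 12 leave-one-out fits. At ZT20 1 of the 53 was called, against 3.63% of all genes, namely Nr1d2, the gene of REV-ERBβ, which was higher in the knockout.

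The genotype difference changed with time for 8 of the 53, against 5.88% of all tested genes. Ddhd2, a triglyceride lipase, was at 34.4 ± 4.36 and 26.0 ± 2.37 CPM at ZT8 and at 21.6 ± 3.75 and 27.7 ± 2.19 CPM at ZT20 in wild type and the knockout, a log2 difference between times of 0.77 (adjusted p = 0.0190, edgeR). The Ddhd2 call was lost without knockout ZT8 library 2 or knockout ZT20 library 2, with adjusted p-values up to 0.0580. The others were Tmem159 in the same direction, lost at an adjusted p of up to 0.0515 without library 2 of either ZT8 group or of wild type at ZT20, and Abhd5, Lipa, Spg20, Arntl, Hnf4a and Ppard in the opposite direction. From ZT8 to ZT20, 26 of the 53 were called in wild type and 24 in the knockout, where 27.7% and 17.5% of all tested genes were called. Among the lipolysis genes 7 rose and 1 fell in wild type, the rises including Abhd5, Lipa, Pnpla3 and Hilpda, while 4 rose and 0 fell in the knockout, namely Abhd6, Ces1d, Lipa and Pnpla3. Carboxylesterase genes such as Ces1d and Ces1e form a family of similar copies, so their counts may be shared between copies. Abhd5 was the listed ATGL cofactor with a 1.30-fold rise in wild type (adjusted p = 0.00223, edgeR) and a log2 change of −0.04 in the knockout, and the test of the difference between these changes gave an adjusted p of 0.0384, lost in 11 of the 12 leave-one-out fits, all but that without knockout ZT20 library 1.

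The genes whose pattern over the 12 libraries lay closest to a member were ranked by the root mean square difference of log2 CPM after centring each gene on its own mean. For Plin5, whose own spread on this scale was 0.63, the nearest were Gm11955 at 0.17, Nbeal2 at 0.19 and Ablim3 at 0.22. Cidec, with a spread of 0.68, had Slc38a2, Csf2rb2 and Il1rn, all at 0.27. Plin3 varied by 0.20 and had Lzts3 and Naprt1 at 0.06 and Sema4a at 0.07. Pnpla2 varied by 0.52 and had Ulk1 at 0.09, Rapgef4 at 0.11 and Wipi1 at 0.13, and G0s2, with 0.78, had Acaa1b at 0.28, Ugt1a5 at 0.30 and BC029214 at 0.31. Ugt1a5 shares exons with the rest of the Ugt1a locus, so its count is uncertain. Plin4 varied by 0.43 and had 4930594M22Rik at 0.19 and Hopx at 0.24. A small distance for Plin3 is partly its small spread, and the ranking describes these libraries without a test.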

How the data were processed

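Poly(A) RNA of wild-type and Rev-erbα-/- liver was sequenced with reads of at most 75 bases. Per the study's methods, the authors aligned them to mm10 with TopHat, kept uniquely mapped reads and counted them per gene name with HTSeq-count, ignoring strand, with a minimum quality of 10. The annotation release is not given in the sources used here. The deposited values are raw counts for 38926 symbols. The 5 summary lines were left out (ambiguous reads, 3.08 to 3.62%; reads in no gene, 8.5 to 9.95%). The submitters' processing notes name DESeq2 1.6.3.

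Counts were tested with edgeR 4.0.16 in R 4.3.3 (filterByExpr, TMM, robust quasi-likelihood fit of 4 group means over 12 libraries, Benjamini-Hochberg over all tested genes). DESeq2 1.42.0, other scaling and filters, the 2 groups alone, a replicate block and leaving out libraries were alternatives. The fit was tested on simulated data. Replicates differed beyond sampling noise. Annotation and lengths are GENCODE M21. Intervals of 95% and floors of 3 counts cover counting or replicate error only. All 9 members are named. From the wider lists the 10 genes with the smallest adjusted p in any genotype comparison were chosen for description, with others in counts. Of these and of the genes nearest in pattern, 2 are not reported here. Hnf4a, Ubxn4, Nr1d2 and the wider-list genes named only for their time change were named after their values were seen. The members and lists were chosen with earlier results of these data known.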

Additional observations from a re-analysis of the deposited data

Results flagged for a closer look

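For 9 genes the test of the difference itself found that the genotype effect differed between ZT8 and ZT20. Values are the log2 difference at ZT20 minus that at ZT8, from edgeR over all 12 libraries. Among the droplet coat genes this was Plin5 at −1.55. In the wider lists it was Arntl at −5.20, Ppard at −1.33, Lipa at −0.55, Hnf4a at −0.50, Spg20 at −0.46, Abhd5 at −0.41, Ddhd2 at 0.77 and Tmem159 at 1.11. All 9 use the wild-type ZT8 libraries. Without libraries 2 and 3 of that group 1 library is left in it and fewer of all tested genes pass, so calls are not compared. The values were then −1.63 for Plin5, −0.39 for Spg20, −0.41 for Lipa, −0.55 for Hnf4a and −0.45 for Abhd5. They were 0.94 for Tmem159, −4.93 for Arntl, −1.46 for Ppard and 0.96 for Ddhd2. All 9 kept their sign. Of the 12 fits that each left out 1 library, the call was lost in 11 for Abhd5 and in 9 for Hnf4a.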

How the results depend on the processing

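The calls of Plin5, Plin3 and Cidec at ZT8 kept direction and significance under DESeq2, RLE size factors, no filter, a minimum of 10 counts in every sample, the 2 groups alone and all 12 fits that left out 1 library. Leaving out wild-type ZT8 libraries 2 and 3, an alternative chosen after seeing the data, removes 2 of 3 wild-type libraries and changed most. Fewer of all tested genes pass in that fit, so its numbers of calls are not compared. The ZT8 log2 differences were then 1.40 for Plin5, −0.37 for Plin3 and −0.80 for Cidec. Leaving them out also turned the sign of uncalled values. At ZT8 Plin2 went to −0.14 and Pnpla2 to 0.13. Pnpla2 went to −0.20 for the difference between times. In the wild-type time change Plin4 went to 0.27 and Cideb to −0.10. The ZT8 ratio of G0s2 to Pnpla2 went to −0.0807 and the Plin2 share difference to −10.8 points. The cause was not tested. Wider-list genes called at ZT20 numbered 4 with DESeq2 and 2 in the fit of the 2 groups alone, against 1. With no filter 2 members were called for the difference between times, Cidec joining Plin5. The change of the Plin2 share at ZT20 was 2.45 points with the longest transcript.

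No pairing by the shared replicate numbers was detected. The mean correlation of deviations was −0.0144 for libraries of the same number and 0.00712 for others, and 1 of 12 libraries correlated best with its own number. Whether libraries of the same number shared a batch or a collection was not tested. With the replicate block 2 members were called for the difference between times (Plin5 and Cidec, the latter at 1.34 with an adjusted p of 0.0351), and G0s2 in the wild-type time change was 1.56 with an adjusted p of 0.0651. Abhd5 for the difference between times was −0.41 with an adjusted p of 0.0507 under the block, and −0.40 with 0.0509 without the filter. Hnf4a under the block was 0.35 with 0.0532 at ZT8 and −0.50 with 0.0622 for the difference between times. Plin4 in the knockout time change was −0.91 with 0.0629 in the 2 groups alone.

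Over the fits leaving out 1 library, members called for the difference between times ranged from 1 to 2, wider-list genes called from 0 to 3 at ZT20 and from 4 to 10 for the difference between times, and the Plin2 share difference at ZT20 from 1.28 to 5.67 points. Uncalled values whose sign turned ranged as follows. At ZT8, Plin2 ranged from −0.14 to 0.17 and Cideb from −0.18 to 0.02. At ZT20, Plin3 ranged from −0.10 to 0.00, Cidec from −0.26 to 0.17 and Pnpla2 from −0.14 to 0.01. For the difference between times, Plin2 ranged from −0.09 to 0.21, Cideb from −0.10 to 0.10 and Pnpla2 from −0.07 to 0.17. In the time changes, Plin4 in wild type ranged from −0.32 to 0.01, and in Rev-erbα-/- Plin5 from −0.26 to 0.17 and Cidec from −0.23 to 0.07. Depth limits Cidea and, with 18 to 97 reads per library, Cidec.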
